A study of Homo sapiens with 8 samples.

Results

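The early growth response genes EGR1, EGR2, EGR3 and EGR4 and the genes of their corepressors, NAB1 and NAB2, were examined for accessible chromatin in HUDEP-2 cells, an immortalised human erythroid progenitor line whose growth depends on doxycycline and on Kit signaling. A peak belonged to a gene when its summit lay inside the gene body or within 100 kb of one of its start sites. Peaks of 4 ATAC-seq libraries that shared at least 1 bp were joined into regions, and 57 of the 43569 regions met this rule by position alone: 11 at EGR1, 4 at EGR2, 14 at EGR3, 9 at EGR4, 3 at NAB1 and 16 at NAB2. ATAC-seq uses the Tn5 transposase to cut and tag open DNA, so that fragments pile up where chromatin is accessible. The labels describe 8 samples in 4 groups of 2. The 4 libraries of sgControl cells were used, which carried a scrambled control guide (per the methods from a lentiviral vector that also encodes a KRAB-dCas9 repressor and GFP, in a GFP-sorted pool), and the sgEGR1 samples were not analysed here. Cells were expanded with dexamethasone, erythropoietin, doxycycline and stem cell factor (SCF), the ligand of the Kit receptor. They were deprived of growth factors for 5 h in medium with bovine serum albumin and then received SCF at 50 ng/ml or phosphate-buffered saline (PBS) for 1 h, with 50000 cells per library and 2 libraries per treatment.

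EGR proteins are zinc finger transcription factors that bind a GC-rich sequence, and their genes belong to the immediate early class, which is transcribed within minutes of a growth factor signal without new protein synthesis. The signal travels from a receptor tyrosine kinase through RAS, RAF, MEK and ERK to the ETS-domain factors of the ELK family, which sit together with serum response factor on serum response elements in front of these genes. NAB1 and NAB2 bind EGR1, EGR2 and EGR3 and repress their targets, and NAB2 is itself an EGR target, so that the pair closes a negative feedback loop.

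The sequences on which the promoter results turn are given first, read from GRCh37 (hg19), the build named in the headers of the peak lists. The capitals mark serum response elements at EGR1 and EGR2, the AP-1 word TGANTCA, the EGR word GCGTGGG or its reverse complement CCCACGC, and the NGG protospacer-adjacent motif of 2 guides. The EGR1 upstream cluster lies at chr5:137800742-137800821 and the cluster next to the start at chr5:137801055-137801102, both on the plus strand.
EGR1 distal serum response elements: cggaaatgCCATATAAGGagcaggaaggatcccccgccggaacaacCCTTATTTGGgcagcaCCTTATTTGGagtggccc
EGR1 proximal serum response elements: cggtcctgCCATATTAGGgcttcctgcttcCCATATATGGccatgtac

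EGR2 was the other EGR gene with a strong promoter region, and its 2 serum response elements are shown for comparison on the minus strand, at chr10:64576176-64576209 and chr10:64576475-64576508. The AP-1 word of the EGR2 region that was called only with PBS lies at chr10:64577685-64577715 (minus strand), and the AP-1 word downstream of EGR1 at chr5:137824407-137824437 (plus strand).
EGR2 serum response element next to the start: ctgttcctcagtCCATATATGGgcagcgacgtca
EGR2 serum response element farther upstream: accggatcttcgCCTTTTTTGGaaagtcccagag
EGR2 AP-1 word in the PBS-only region: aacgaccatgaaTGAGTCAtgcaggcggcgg
EGR1 AP-1 word at the region downstream: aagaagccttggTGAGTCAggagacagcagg

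The corepressor genes carried EGR words at their starts. NAB1 is shown at chr2:191513596-191513618, and NAB2 at chr12:57482758-57482788, chr12:57482509-57482539 and, inside the gene, chr12:57487884-57487914, all on the plus strand. The sgEGR1 guide matched chr5:137800519-137800541 and the guide that the study names NAB2-KRE matched chr12:57487937-57487959, both on the plus strand and with 1 match each in the genome.
NAB1 EGR word next to the start: ggcggcggCCCACGCcgggatct
NAB2 EGR word next to the start: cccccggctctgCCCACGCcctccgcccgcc
NAB2 EGR word farther upstream: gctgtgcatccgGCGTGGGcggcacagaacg
NAB2 EGR word in the intragenic element: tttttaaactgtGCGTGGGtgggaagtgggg
sgEGR1 guide: ggatgacagcgatagaacccCGG
NAB2-KRE guide: ttcttgagggaggagctcggAGG

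Read totals cannot be had from peak lists. The lists held 29215 to 33550 peaks, and depth recovered from the genome-wide background, with PBS replicate 1 set to 1, highest in PBS replicate 2 (1.42) and below 1 in both SCF libraries (0.883 and 0.843). The replicates are called biological duplicates in the methods, and a test of 2 against 2 libraries has little power. Of 10 erythroid marker genes, 8 had a promoter region called in all 4 libraries and the rest in fewer (KIT in 3 and ALAS2 in 1). Of 10 markers of other cell types, 3 (CD8A, CD14 and ITGA2B) were called in all 4 libraries, SOX2 in 1 and the other 6 in none. Of all protein-coding promoter regions with a peak in any library, 78.4% were called in all 4. By gene, 12051 had a promoter region called in all 4 libraries, of 20136 protein-coding genes. Open promoters were thus more frequent among the erythroid markers than among those of other cell types, and the erythroid share lay close to the share by region. An open promoter did not by itself identify the cell type.

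At its summit, the EGR1 promoter had similar values with and without SCF, and no difference was detected. The values are those at the summit, so a change elsewhere in the region would not be seen. A single region, chr5:137799697-137801738, covered the EGR1 start (EGR1, ENSG00000120738.8_6, plus strand, chr5:137801168-137804992), and its summits lay 206 to 230 bp upstream of the start in the 4 libraries. The fold enrichment, which is the pileup at the summit over the local background, was 9.74 and 9.92 with PBS, against 10.5 and 10.1 with SCF. As percentile ranks within each list (100 is the strongest peak) these values were 69.5, 73.2, 73.2 and 74.7. The treatments lay side by side, with PBS replicate 2 and SCF replicate 1 at the same rank. The log2 difference in fold enrichment, SCF minus PBS, was 0.07 (SE 0.15, limma adjusted p = 0.966). Over all 22355 regions called in all 4 libraries, the summit pileup over the genome-wide background was 0.15 higher with SCF on the log2 scale (median), and every difference given here is relative to the median of each library. On that scale the EGR1 pileup differed by 0.02 (SE 0.15).

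The EGR1 promoter was taller in every library than those of the other genes of the set, and wider than all but the NAB2 peak of SCF replicate 2. Whether the summit pileup counts fragments or read ends is not given in the sources used here. Recovered as a whole number from the fold enrichment and p-value of each peak, it was 252 and 346 with PBS and 247 and 239 with SCF. For a count of 252 the exact 95% Poisson interval, which covers counting error only, ran from 222 to 285. The 4 pileups were at percentiles 99.5, 99.6, 99.4 and 99.8 of the pileups in their lists. Peak width was 1861 to 1941 bp, above percentile 99 of each list. For a comparison of height, each protein-coding gene was represented by its strongest promoter region by mean rank, and its other promoter regions were left out. Called in all 4 libraries were 10395 such regions, standing for 12051 genes. Only 69 of these regions (0.664%) had a pileup percentile as high as that of EGR1 in every library, the EGR1 region included. JUND, an AP-1 subunit, was another, with pileup percentiles of 99.86 to 99.96 and fold enrichment ranks of 62.3 to 68.1. At EGR1, the middling rank by fold enrichment went with a high local background, 22.6 to 25.8 times the genome-wide background, where the median peak had 2.02 to 2.46 times.

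**Figure D1:**
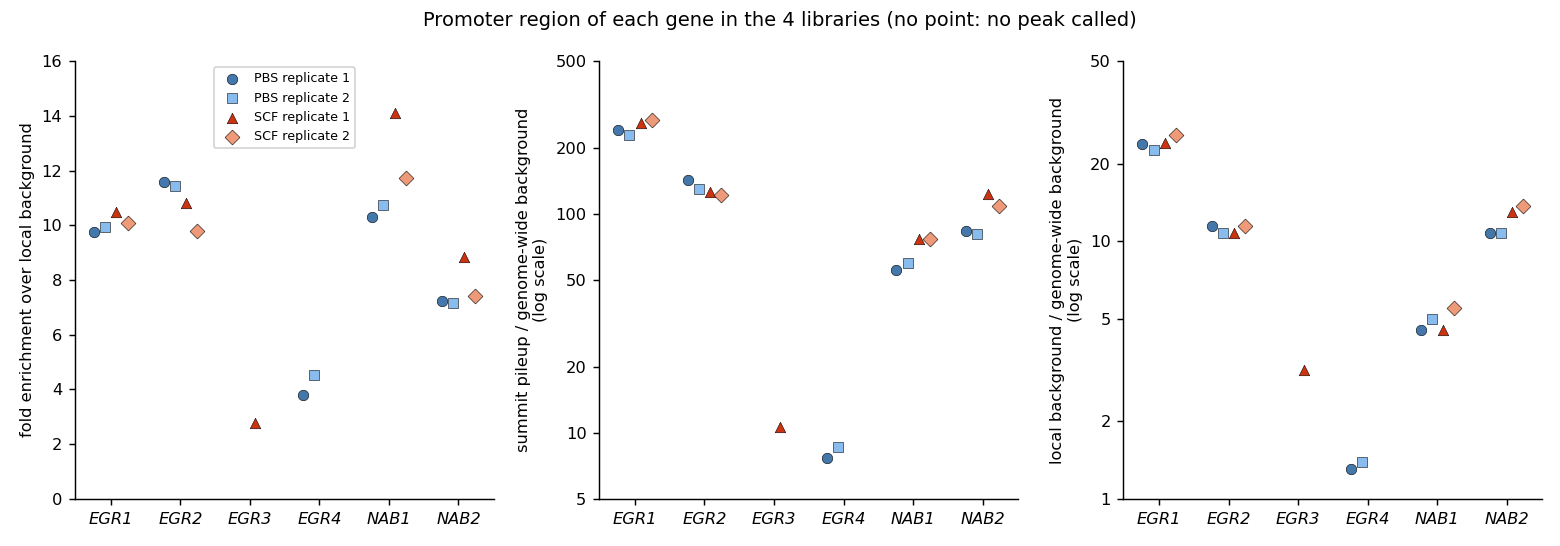
Promoter region of each gene in each library: fold enrichment over the local background (left, linear axis from 0), summit pileup divided by the genome-wide background (middle, log axis) and local background divided by the genome-wide background (right, log axis). Each point is 1 library, and no point means that no peak was called. EGR1 has the highest pileup and the highest local background in all 4 libraries, while its fold enrichment of 9.74 to 10.5 lies near that of EGR2 and NAB1.

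EGR2, which in other tissues directs hindbrain and Schwann cell development, had 3 promoter regions. The strongest, chr10:64576140-64576939, lay 188 to 267 bp upstream of an internal start and 2.61 kb downstream of the first start of the gene (EGR2, ENSG00000122877.18_16, minus strand, chr10:64571756-64578927). Its ranks were 80.2 and 81.6 with PBS and 75.2 and 72.8 with SCF, with pileups of 149, 195, 119 and 108. Both SCF ranks were below both PBS ranks. The log2 difference was -0.16 (SE 0.15), which did not pass the test (limma adjusted p = 0.897).

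At the first EGR2 start, a region at chr10:64578414-64579198 was called in all 4 libraries with ranks of 31.8, 40.6, 25.6 and 37.5 and pileups of 69, 99, 56 and 62. The PBS and SCF ranks overlapped (log2 difference -0.05, SE 0.22, limma adjusted p = 0.985). Between both starts, in an intron, another region at chr10:64577641-64578102 was called with PBS only, with ranks of 4.99 and 3.77 and pileups of 46 and 55. It held the AP-1 word printed above, 67 bp from its summit. Its pileups were well above the median of the lists (23 and 26) although its ranks were among the lowest, and its local background was high for its height.

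The promoters of EGR3 and EGR4 were weak or uncalled. EGR3 (ENSG00000179388.9_14, chromosome 8, minus strand, 22545172 to 22550993) had a promoter peak only in SCF replicate 1, 355 bp upstream of its first start, with a rank of 0.462 and a pileup of 10 (exact 95% Poisson interval 4.80 to 18.4). EGR4 (ENSG00000135625.8_9, minus strand, chr2:73518057-73520829) had a promoter peak at chr2:73520493-73520881 in the 2 PBS libraries only, with ranks of 6.54 and 22.5 and pileups of 8 and 13. Both genes act as immediate early genes in neurons and lymphocytes. Pileups of this size were below the median of their lists, and a library without a peak may hold fragments that did not reach the calling threshold.

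The order of the 6 promoters depended on the measure. By summit pileup over genome-wide background, EGR1 stood first at 251 ± 18.2 (SD, n = 4 libraries), followed by EGR2 at 130 ± 8.84, NAB2 at 99.2 ± 19.96 and NAB1 at 67.4 ± 11.3. EGR3 was at 10.6 in its 1 library and EGR4 at 8.16 ± 0.718 in its 2. The values of EGR1 did not overlap those of any other gene, whereas the highest NAB2 value (123, SCF replicate 1) exceeded the lowest of EGR2 (122, SCF replicate 2). By fold enrichment the order was NAB1 (11.7 ± 1.69), EGR2 (10.9 ± 0.822), EGR1 (10.1 ± 0.311) and NAB2 (7.67 ± 0.781), and the values of NAB1, EGR2 and EGR1 overlapped.

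Set against EGR2 within each library, EGR1 ranked 10.7 and 8.35 points lower with PBS, and with SCF 2.00 points lower in the first replicate and 1.90 points higher in the other. The mean over the 4 libraries was -4.78 points (SD 5.78). By −log10 p, which grows with the pileup, EGR1 ranked higher than EGR2 in every library, by 5.41 points on average (SD 2.14). The EGR1 pileup was 1.69 and 1.77 times that of EGR2 with PBS and 2.08 and 2.21 times with SCF, and the ratio of their local backgrounds was 2.09, 2.11, 2.24 and 2.25 in the same order. Both ratios were higher in the SCF libraries, for which no test was made.

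**Figure D2:**
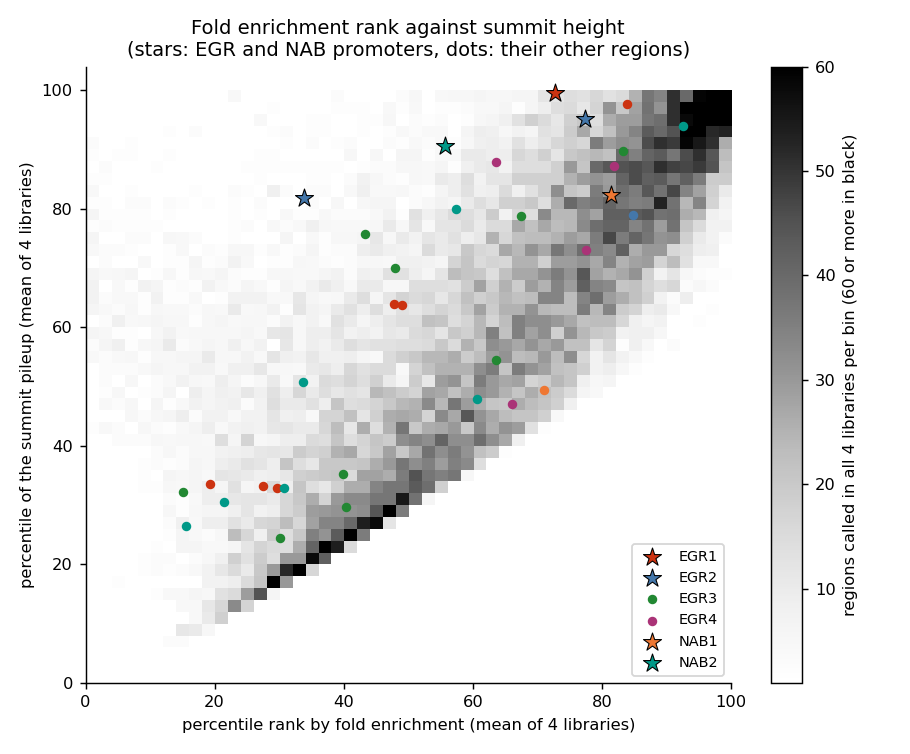
Mean percentile rank by fold enrichment (horizontal) against mean percentile of the summit pileup (vertical) for the regions called in all 4 libraries, binned in grey, with the EGR and NAB promoters as stars and their other regions as dots. The EGR1 promoter sits at the top edge with a rank of 72.7, to the left of most regions of that height, and the region at the first EGR2 start and the NAB2 promoter also lie above the dense band.

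The 3 protein-coding genes whose promoter regions were nearest to EGR1 in percentile rank over the 4 libraries, among 12051 genes, were NDUFAB1, TONSL and ATOSB, at distances of 2.59, 3.11 and 3.21 points. Their pileups stood lower. The NDUFAB1 pileup percentiles ran from 69.0 to 73.2, and those of TONSL (95.9 to 97.0) and ATOSB (96.1 to 98.0) were nearer to EGR1.

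NAB1 had its promoter region at chr2:191513108-191514616, where the summits lay within 31 bp of a start and 2.14 kb downstream of the first start (NAB1, ENSG00000138386.17_13, plus strand, chr2:191511472-191557492). Its ranks were 73.1 and 77.8 with PBS and 90.9 and 83.9 with SCF, and the pileups were 58, 90, 73 and 68. Both SCF ranks were above both PBS ranks, the widest such separation among the promoters of the 6 genes called in all 4 libraries. The log2 difference was 0.29 (SE 0.14) and did not pass the test after adjustment (limma unadjusted p = 0.0581, adjusted p = 0.744). Without SCF replicate 1 it was 0.15.

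NAB2 (ENSG00000166886.13_12, plus strand, chr12:57482826-57489259) had its promoter region at chr12:57480833-57483075, within 1 kb of a start of NEMP1 as well, so that the signal cannot be assigned to 1 of the 2 genes. Ranks were 50.7 and 54.3 with PBS and 62.3 and 55.2 with SCF, with pileups of 88, 122, 116 and 96. Again both SCF ranks exceeded both PBS ranks, here by under 1 point at the closest. The log2 difference was 0.17 (SE 0.20, limma adjusted p = 0.936), 0.03 without SCF replicate 1, 0.29 without SCF replicate 2 and 0.32 by summit pileup. The exact two-sided permutation test on the ranks of 2 against 2 libraries cannot go below p = 0.333, the value that EGR2, NAB1 and NAB2 reached.

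Each guide site was then looked up in the lists. The sgEGR1 match lay inside the EGR1 peak of all 4 libraries, 649 bp upstream of the start and 443 bp upstream of the region's summit. The EGR1 values given above are those at the summit, and accessibility at the guide site itself was not measured. The NAB2-KRE match lay in an intron, 5.11 kb downstream of the first NAB2 start, inside a region (chr12:57487842-57488122) that was called in SCF replicate 1 only. That peak had a rank of 1.26 and a pileup of 17, and the EGR word printed above lay 28 bp from its summit.

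Away from the promoters, the EGR1 locus held 10 further regions, 6 of them called in all 4 libraries. The strongest, at the start of the translation termination factor gene ETF1 77.8 kb downstream of EGR1 (chr5:137878582-137879636), had ranks of 83.2 and 78.3 with PBS and 86.8 and 87.5 with SCF. The next, 23.2 kb downstream and between genes (chr5:137824041-137824505), had ranks of 37.4 and 44.9 with PBS and 48.3 and 65.2 with SCF, and pileups of 27, 40, 36 and 43. In both, the SCF ranks lay above the PBS ranks. The log2 differences were 0.15 (SE 0.13, limma adjusted p = 0.891) and 0.39 (SE 0.22, limma adjusted p = 0.758). The second is the region with the AP-1 word shown above.

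Further EGR1 regions fell on either side. A region 26.8 kb downstream (ranks 47.9, 48.4, 52.9 and 42.1) overlapped between treatments. One 26.4 kb upstream at the start of REEP2 (33.3 and 39.4 with PBS, 19.8 and 26.3 with SCF) ranked lower in both SCF libraries. The only member region at EGR1 with an EGR word near its summit lay 15.4 kb upstream, with ranks of 40.01, 25.3, 15.0 and 29.7.

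At EGR2 the only region that was not a promoter of the gene lay at the start of its neighbour ADO, 14.5 kb downstream (chr10:64564041-64565236), with ranks of 90.4, 87.6, 89.8 and 71.8. SCF replicate 2 was the low library, and the treatments overlapped (log2 difference -0.20, SE 0.16, limma adjusted p = 0.873). No further region was called within 100 kb. The nearest outside this limit was 314 kb away, against 101 to 116 kb for the other genes. Just inside the limit, the farthest region of the set lay 98.9 kb from EGR1 and was called in 1 library at a rank of 7.90, and just outside it, a region 101 kb from NAB2 was called in 2 libraries at a mean rank of 21.4.

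EGR3, whose promoter was called in 1 library only, had the most regions after NAB2, 9 of 14 called in all 4 libraries. The strongest were at the start of CCAR2, 88.6 kb downstream (ranks 86.0, 90.2, 78.1 and 78.6), and at the start of BIN3, 24.5 kb downstream (66.4, 77.1, 60.6 and 65.6). The only region of the 6 genes to gain rank, that is, with both SCF ranks at least 10 points above both PBS ranks, lay 41.0 kb downstream in a BIN3 intron (chromosome 8, 22509831 to 22510293). Its ranks were 18.6 and 25.03 with PBS and 57.1 and 60.9 with SCF, and its pileups 9, 13, 17 and 17. The groups stood well apart, but all 4 pileups were below the median of their lists. The log2 difference was 0.80 (SE 0.22, limma unadjusted p = 0.00232, adjusted p = 0.557).

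Another region of the same locus lost rank by the mirrored rule. It lay 93.8 kb downstream at the start of C8orf58 (chromosome 8, 22457089 to 22457482) and had ranks of 58.9 and 52.3 with PBS and 20.2 and 42.0 with SCF, and pileups of 69, 84, 40 and 42. The log2 difference was -0.48 (SE 0.23, limma adjusted p = 0.731). An AP-1 word lay within 100 bp of its summit. Closest to EGR3 itself, 2.19 kb upstream, a region was called in all 4 libraries at low ranks (6.76, 24.6, 2.61 and 26.6) in which the replicates differed more than the treatments.

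EGR4 had 4 of 9 regions called in all 4 libraries. Each of the 4 had its summit within 1 kb of the start of another gene. The strongest were ALMS1, 92.3 kb upstream (ranks 80.2, 83.8, 83.8 and 79.6), and SMYD5, 79.6 kb downstream (78.5, 79.8, 71.3 and 80.8), and in both the treatments overlapped. Within the gene, an exonic region 2.24 kb downstream of the start was called in 3 libraries, with ranks of 53.4 and 30.4 with PBS and 36.1 in SCF replicate 2. A region at the start of NOTO, 91.3 kb downstream (chr2:73429344-73429653), was called with PBS only, at ranks of 15.7 and 13.6 and pileups of 8 and 9.

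The NAB loci differed in the number of sites. NAB1 had only 2 regions beside its promoter. The region 67.9 kb upstream, between genes (chr2:191443148-191443801), lost rank, with 82.2 and 79.9 in PBS against 65.8 and 56.2 in SCF libraries, and with pileups of 29, 35, 18 and 15. The groups did not overlap (log2 difference -0.46, SE 0.17, limma unadjusted p = 0.0150, adjusted p = 0.668), and it held 2 GATA words (AGATAA or TGATAA), 225 and 274 bp from the summit. The sign of its difference was opposite to that of the NAB1 promoter.

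NAB2 had the most regions, 8 of 16 called in all 4 libraries. Its own promoter region aside, 7 of the 16 had a summit within 1 kb of the start of a neighbouring gene. The strongest was at the start of NEMP1, 10.1 kb upstream (chr12:57471941-57472996), with ranks of 94.9 and 91.5 with PBS and 94.7 and 88.9 with SCF. The next lay at the start of MYO1A, 49.6 kb upstream (56.6, 59.5, 56.2 and 70.5). The treatments overlapped in both. The 3 regions at starts of STAT6 or LRP1 that were called in all 4 libraries had mean ranks of 15.5 to 57.3, and each ranked lower in both SCF libraries except for the one 13.6 kb downstream (39.6 and 17.2 with PBS, 10.6 and 18.6 with SCF).

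**Figure D3:**
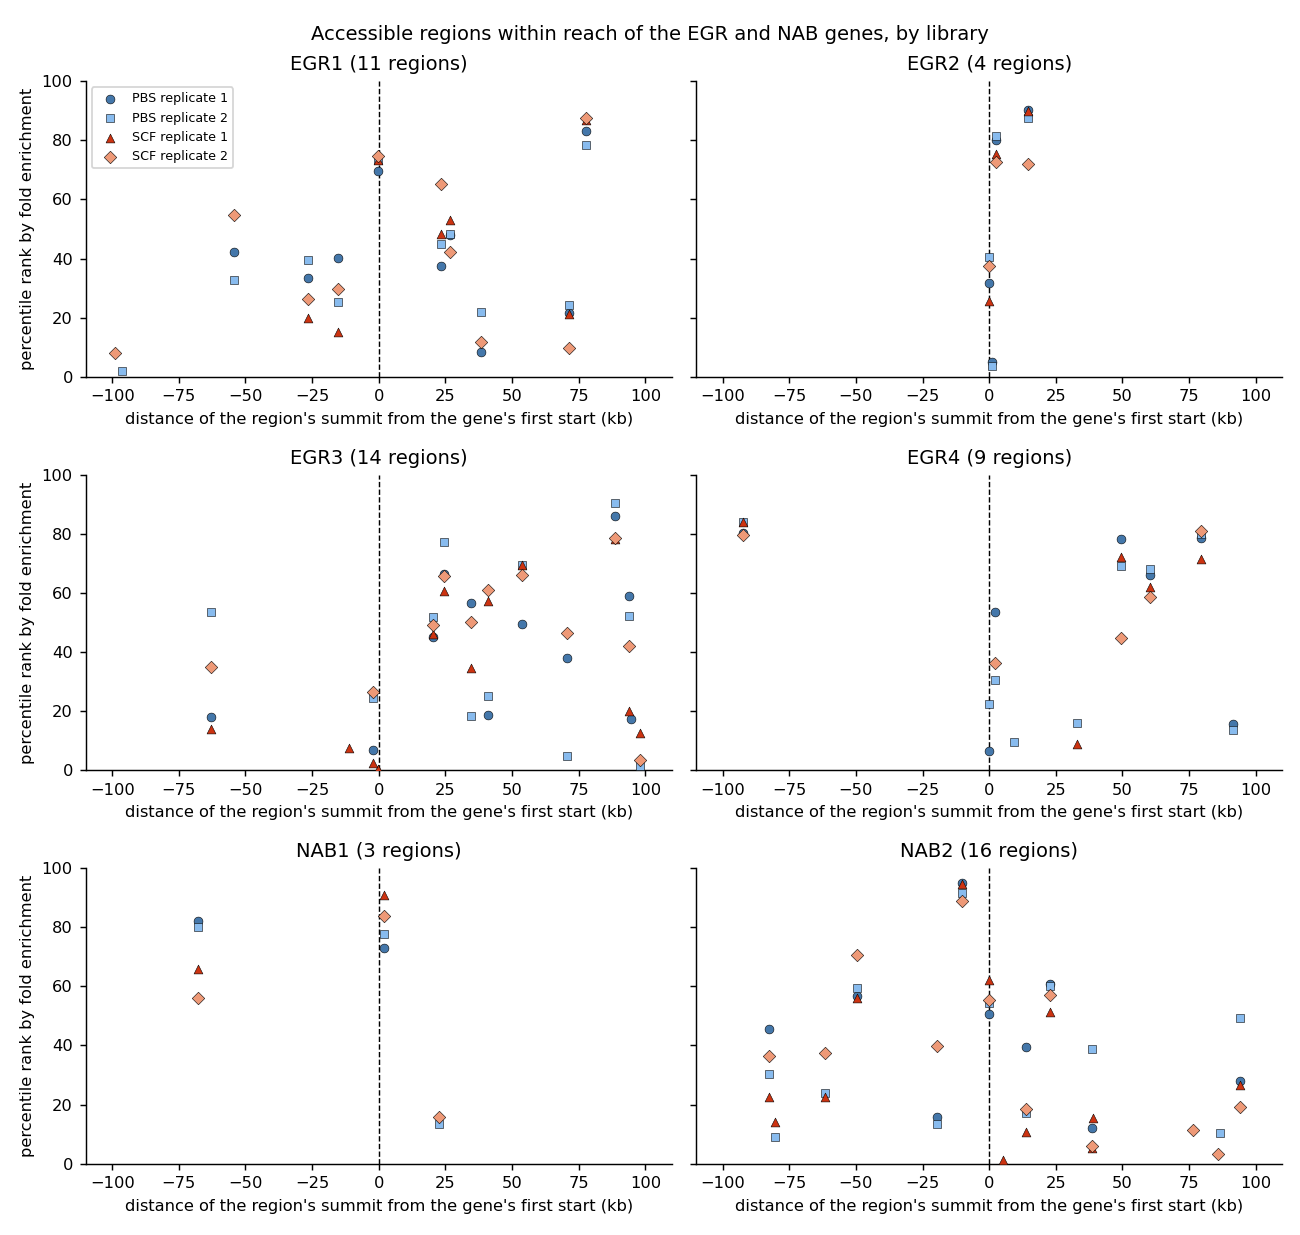
Percentile rank by fold enrichment of every region of each gene in each library (vertical) against the distance of its summit from the gene's first start in the direction of transcription (horizontal, kb). A missing symbol means that the library had no peak there. EGR1 has its 4 symbols close together at the start, at ranks of 69.5 to 74.7, EGR3 and EGR4 have few and low symbols there, and the EGR3 region with both SCF ranks (57.1 and 60.9) far above both PBS ranks (18.6 and 25.03) lies at 41.0 kb.

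Over all 6 genes, 33 of 57 regions (57.9%) were called in all 4 libraries, against 51.3% of all regions. Of the 8 promoter regions of the 6 genes 5 were so called, of the 20 regions at starts of other protein-coding genes 16, and of the 29 distal regions 12 (41.4%), against 78.4% of all promoter regions and 36.9% of all distal regions in the genome. The 24 regions missing from at least 1 list were present 9 times in PBS replicate 1, 16 times in the deepest library, PBS replicate 2, and 8 and 11 times in the SCF replicates, and their highest pileup was 55. None was called with SCF only, that is, by both SCF replicates and no PBS replicate (1.65% of all regions were), and 3 were called with PBS only (5.26%, against 2.37% of all regions). These counts were small and moved with single libraries: without SCF replicate 2, 8 were PBS only and 4 SCF only.

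Between the treatments, 0 of the 33 regions passed the limma test in either direction at an adjusted p of 0.05, as did 0% of all 22355 regions tested in the higher and 0% in the lower direction. At an unadjusted p of 0.05, 2 of the 33 (6.06%) passed, against 6.86% of all. Rank gain was seen in 1 (3.03%, against 2.57% of all) and rank loss in 2 (6.06%, against 3.04%). The ranks did not overlap in 16 regions. SCF was higher in 5 of these (15.2%, against 16% of all) and PBS higher in 11 (33.3%, against 19.2% of all). The median log2 difference of the 33 regions was -0.11, with 22 below 0, while the median of all tested regions was -0.0017 with 50.4% below 0. The 16 regions at starts of other genes had a median of -0.17 and 14 of them were below 0. The 12 distal regions had a median of -0.02 with 6 below 0, and 3 of the 5 EGR and NAB promoter regions were above 0. Of the regions called in all 4 libraries across the genome, 54.1% of those at protein-coding promoters were below 0 (median -0.016). Among the distal ones it was 46.1% (median 0.021).

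**Figure D4:**
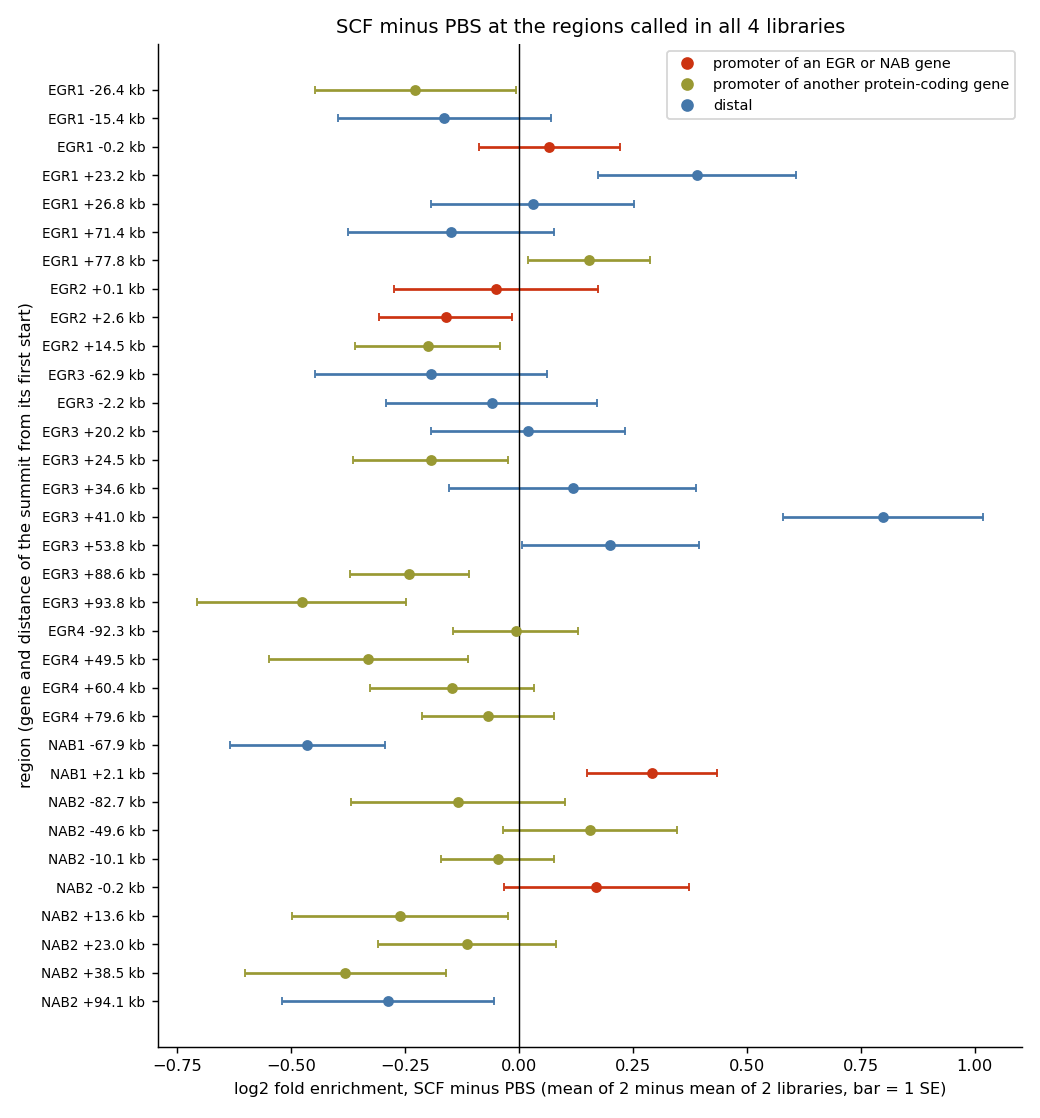
Log2 difference in fold enrichment, SCF minus PBS, for the 33 regions called in all 4 libraries, ordered by gene and by distance of the summit from the first start. Points are the difference of the means of 2 libraries and bars are 1 SE, coloured by the kind of region. The EGR1 promoter lies at 0.07, the region 41.0 kb downstream of EGR3 stands farthest to the right at 0.80, and none passed the test across all regions.

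Sequence words that the rule did not use were searched on both strands. The EGR1 region held 5 serum response elements, centred 79, 101, 360, 376 and 414 bp upstream of the start, and the summits lay in the gap between both clusters. The ETS word CCGGAAG lay 328 bp upstream, next to the far cluster. Among 20136 genes searched over the 500 bp upstream of each start, with the start of most matches taken for a gene, EGR1 was the only gene with 5 or more serum response elements, 0.228% of genes had 2 or more, and 9.21% had any. In the EGR2 region, 2 elements lay 59 and 358 bp upstream of the internal start, again on either side of the summits. EGR3 had 1 in its 500 bp and EGR4, NAB1 and NAB2 had none.

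Other forms of an EGR site than GCGTGGG were not searched. The EGR word itself had the opposite distribution. It was absent from the promoter regions of EGR1 and EGR2, occurred 2 times in the NAB1 promoter region, within 14 bp of the start, and 5 times in that of NAB2, between 53 and 1701 bp upstream. NAB1 and NAB2 each had 2 within 500 bp upstream of a start, as high a number as was reached by 2.99% of genes, and 24.3% of genes had any. Within 100 bp of the summit, the word lay in 5 of the 57 regions (8.77%, against 3.80% of all regions), 4 of them named above, at the NAB1 and NAB2 promoters, the NAB2 intronic site and 15.4 kb upstream of EGR1, and the other at CCAR2. The AP-1 word lay in 7 (12.3%, against 8.43%), the GATA word in 4, all at NAB2 (7.02%, against 25.4%), the ETS word in 1 (1.75%, against 4.43%), and the cAMP response element TGACGTCA in none (0.682% of all). The serum response element also lay within 100 bp of no summit (0.920% of all), since those of EGR1 and EGR2 were farther out. A match describes letters and not binding.

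**Figure D5:**
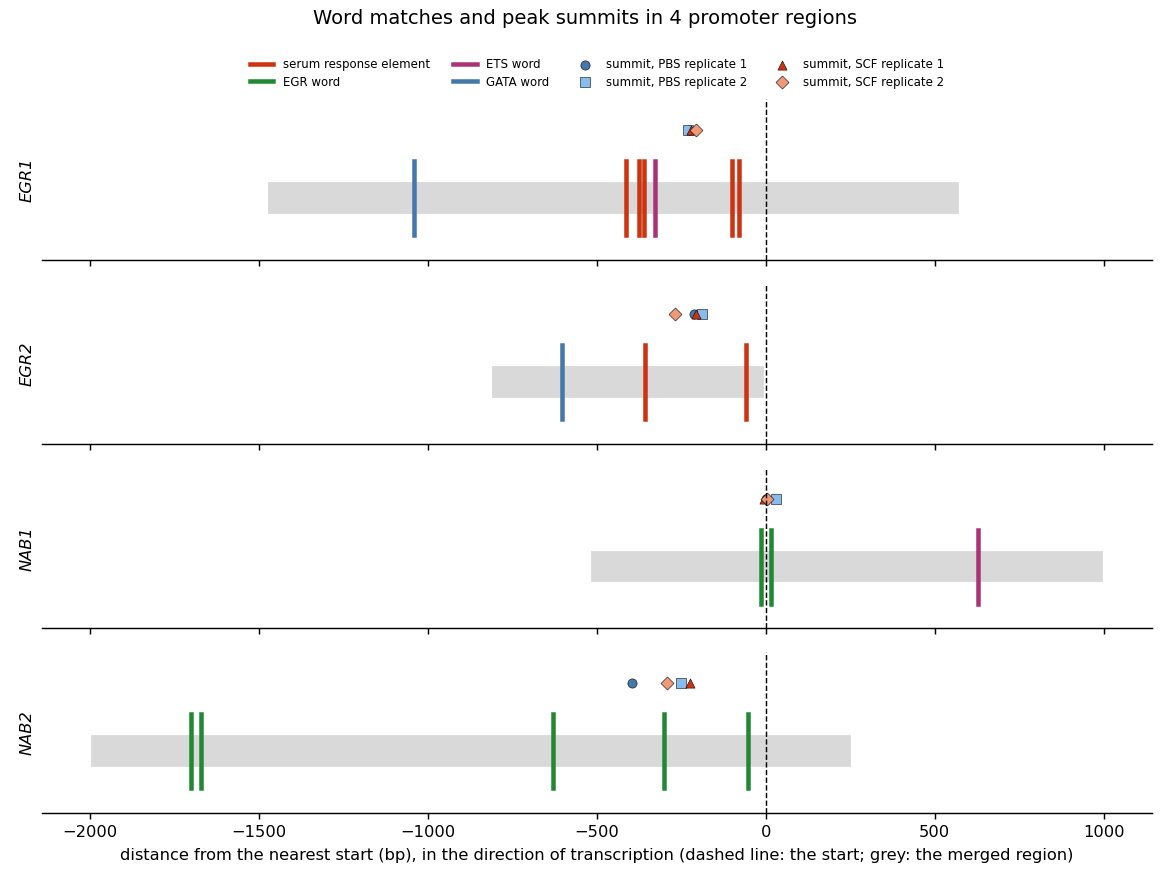
Word matches (coloured ticks) and peak summits of the 4 libraries (symbols) in the promoter regions (grey) of EGR1, EGR2, NAB1 and NAB2, by distance from the nearest start in bp in the direction of transcription. The summits of EGR1 lie 206 to 230 bp upstream, between serum response elements at 79 and 101 bp and at 360, 376 and 414 bp. The EGR words of NAB1 lie at the start itself and those of NAB2 are spread from 53 to 1701 bp upstream.

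For the pathway, promoter regions were looked up for 23 genes on the route from KIT to EGR1 (adaptors, RAS, RAF, MEK and ERK kinases, ELK factors, SRF and its cofactors) and for 39 other immediate early genes. On the route, 21 genes were called in all 4 libraries, KIT in 3 and ELK3 in 1, and 0 changed in either direction by limma at an adjusted p of 0.05. At an unadjusted p of 0.05, 1 passed, MAPK3, which encodes ERK1 (log2 difference 0.33, SE 0.15, limma adjusted p = 0.726). Of the other immediate early genes, 38 were called in all 4 libraries and IER3 in none, and 0 passed limma, adjusted or unadjusted. For comparison, 78.4% of all promoter regions were called in all 4 libraries. This share is counted by region and not by gene, and it leaves out promoters without a peak in any library. By gene, 12051 had a promoter region called in all 4 libraries, of 20136 protein-coding genes. At an unadjusted p of 0.05, 6.86% of all regions passed limma. Median log2 differences were 0.0031 on the route and 0.0014 among the other immediate early genes. SPRED1, an inhibitor of the RAS route, and ARC gained rank (2 of the 38 other immediate early genes, against 2.57% of all regions). Their log2 differences were 0.28 (SE 0.22, limma adjusted p = 0.869) and 0.34 (SE 0.16, limma adjusted p = 0.726). The monocyte marker CD14 also gained rank, with a log2 difference of 0.47 (SE 0.22, limma unadjusted p = 0.0494, adjusted p = 0.726).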

How the data were processed

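Peak lists of the 4 sgControl ATAC-seq libraries were analysed, grouped by the labels, and the members and gene lists were chosen with earlier results of these data known. The authors sequenced paired ends and, per their methods, ran the ENCODE ATAC-seq pipeline. The processing notes name bcl2fastq, Bowtie2 and SAMtools. Methods and notes name hg38, while the headers of the deposited lists name hg19, and the coordinates were read as hg19 (41.1% to 45.3% of summits lay within 1 kb of a protein-coding start in GRCh37). Peaks were called per library, without pooling, and the caller is not given in the sources used here. Replicate numbers within the peak names differ from those of the labels, which were followed.

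The deposited score is a whole number that the authors' caller derived from the q-value, and it was not used. The deposited fold enrichment is the ratio of pileup to local background at the summit, as the authors made it, each with 1 added. The deposited −log10 p and −log10 q come from the authors' caller, with q below 0.05 in every list. A whole-number pileup that gives both values, the −log10 p as a Poisson tail to a relative error of 0.0001, was found for 100% of peaks.

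Peaks on 24 chromosomes were joined into regions, and the peak of highest fold enrichment stood for a region in each library. Promoter regions had a summit within 1 kb of a start (GENCODE 44, lifted to GRCh37), and the strongest by mean rank stood for a gene. Log2 fold enrichment, centred on the library median over the regions called in all 4 libraries, was tested with limma 3.58.1 in R 4.3.3 (trend, no covariate) with Benjamini-Hochberg adjustment over all those regions and a threshold of 0.05. Where a gene or region is called in fewer libraries, values only are given. On simulated data, 136 of 200 regions changed by 2 on the log2 scale were recovered among 22355, with 1 false call. Changes as small as those at the member regions (log2 differences of -0.48 to 0.80) were not simulated. 1 further marker of other cell types is not reported here. Words were counted within 100 bp of the summit. Described individually were the promoter regions, those called by 1 treatment only or changing rank, the 2 strongest other regions of each gene and the guide sites, with further ones picked after their values were seen. Alternatives were the pileup or rank as measure, cyclic loess, quantile normalization, a replicate block, −log10 q of at least 5, equal peak numbers, 50% overlap, a 50 kb window, promoters of 500 bp or 3 kb, gaps of 5 or 20 points, −log10 p ranks and leaving out each library.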

Additional observations from a re-analysis of the deposited data

How the results depend on the processing

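The promoter differences of EGR1, EGR2, NAB1 and NAB2 kept their sign under each alternative run for them (measure, normalization, replicate block, peak filters, overlap, promoter limit and leaving out each library), and none passed the test. On the log2 scale, that is, leaving aside the ranks, they ran from 0.02 to 0.09 at EGR1, from -0.29 to -0.09 at EGR2, from 0.15 to 0.42 at NAB1 and from 0.03 to 0.32 at NAB2. No member region passed the test in any setting, and over all regions 0 passed in either direction with all 4 libraries. Leaving out 1 library, which assumes that a lone sample varies like the others, gave 0 to 8 regions higher and 1 to 4 lower with SCF, none of them a member (6 and 4 without PBS replicate 1, 8 and 1 without PBS replicate 2, 1 and 2 without SCF replicate 1, 0 and 4 without SCF replicate 2). With the replicate block the EGR1 promoter difference was 0.07, 0 regions passed and the lowest adjusted p was 0.0737. By the label numbers, the differences between replicates 1 and 2 correlated at 0.012 between treatments. Since the peak names carry other replicate numbers, this cannot settle whether replicates of the same number were paired.

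The counts of single regions were less stable. With a −log10 q of at least 5, PBS-only regions fell from 3 to 1 and rank gains to 0. Equal peak numbers gave 2 rank gains. The 50 kb window left 33 regions, 21 called in all 4 libraries and 0 rank losses. A gap of 5 points gave 2 gains and 6 losses, and one of 20 points 0 losses. Leaving out PBS replicate 1, PBS replicate 2, SCF replicate 1 and SCF replicate 2 in turn gave 0, 2, 3 and 4 SCF-only regions, 6, 4, 3 and 8 PBS-only regions, 2, 4, 5 and 2 gains, and 8, 4, 5 and 4 losses. Ranked by −log10 p, EGR1 stood 5.41 points above EGR2, the reverse of the order by fold enrichment. The cause of these shifts was not tested. By definition, the rules ask for fewer libraries when 1 is left out, and the rank rules ask for less separation with a smaller gap. What size of change could be seen at sites with pileups under 20 was not tested.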

Other observations

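Some other promoters combined a high summit pileup with a low rank by fold enrichment. The promoter region of JUNB, an AP-1 subunit, had pileup percentiles of 93.7 to 95.8 but fold enrichment ranks of only 1.23 to 3.40 in the 4 libraries. That of IER2, another immediate early gene, had pileup percentiles of 94.1 to 97.5 and ranks of 11.7 to 27.6. KLF1, the erythroid Krüppel-like factor, had pileup percentiles of 91.9 to 95.7 and ranks of 6.41 to 22.8. Of the promoter regions that stood for protein-coding genes, 194 were in the top 1% of pileups in all 4 libraries. Their mean rank by fold enrichment ran from 50.6 to 99.99 with a median of 92.4, and that of EGR1 was 72.7. JUNB, IER2 and KLF1 were picked after their values were seen.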
